A study of Mus musculus with 2 samples.

Results

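The genes described here encode 10 amino acid transporters of the plasma membrane, *Slc7a1*, *Slc7a3*, *Slc7a5*, *Slc7a11*, *Slc3a2*, *Slc1a4*, *Slc1a5*, *Slc38a1*, *Slc38a2* and *Slc6a9*. They were taken as a fixed list of names, which was chosen with earlier results of these data known. Every probe set annotated to one of them alone was used, which gave 20 of the 45037 probe sets on the array. A probe set is a group of short probes that together report one transcript. The 10 genes are part of 18193 genes that the array measured with a singly annotated probe set.

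Each zone of the growth plate was represented by 1 Affymetrix Mouse Genome array. Both arrays came from femoral cartilage of *Tric-b*-knockout embryos at E17.5, on a strain labelled C57BL/6J, 129Sv, *Tric-b*-KO, and *Tric-b* (*Tmem38b*) encodes a cation channel of the endoplasmic reticulum (ER). The round specimen came from the section rich in round chondrocytes, and the columnar/hypertrophic specimen came from the section with columnar and hypertrophic chondrocytes. In each case RNA of 3 preparations had been mixed before hybridization, so variation between animals cannot be seen. The comparison asks how the zones of the knockout growth plate differ. Wild-type arrays were not analysed here, and the loss of *Tric-b* is shared by both groups.

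Chondrocytes secrete large amounts of collagen, a protein rich in glycine and proline, and depend on carriers that bring amino acids in from a matrix without blood vessels. The carriers exchange or pump particular classes of amino acids, and several of their genes are known targets of ATF4, the transcription factor that is translated when eIF2α is phosphorylated during amino acid shortage or ER stress. Imported leucine and arginine also signal to mTORC1, the kinase complex that matches protein synthesis to nutrients.

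The specimens carried the markers of their labelled zones. Signals below a floor of 65.9, the 40th percentile of all signals, were treated as background. All 5 measured markers of round or resting chondrocytes exceeded 2-fold toward the round specimen, and all 5 measured columnar and prehypertrophic markers did so toward the columnar/hypertrophic specimen. Of 4 compared hypertrophic markers, 3 exceeded 2-fold toward the columnar/hypertrophic specimen, and *Vegfa* had -0.72. *Mmp13*, a protease of terminal hypertrophic cells, was under the floor in both. Markers of other tissues differed too. The summed signal of 8 perichondrium and fibroblast markers was 62794 against 11047 (round first), and 6 of 7 compared exceeded 2-fold toward the round specimen, with the brightest *Scx* probe set under the floor in both. Endothelial markers summed to 592 and 474 over 7 genes (*Tek* and *Tie1* under the floor in both), myeloid and osteoclast markers to 1585 and 1820 over 7 genes (*Acp5*, *Ptprc* and *Tyrobp* under the floor in both), and skeletal muscle markers to 278 and 955 over 7 genes (the brightest probe sets of *Ckm*, *Myh3*, *Myl1* and *Myog* under the floor in both). Erythroid markers summed to 4477 and 2321 over 6 genes, nearly all of it *Tfrc*, and *Epb42*, *Hbb-y* and *Slc4a1* were under the floor in both. The summed signal of 7 general cartilage markers was 175194 and 194253. The part of this uneven tissue content in the transporter values below was not tested, and fewer cells of a type cannot be told apart from less RNA per cell.

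The transporter genes had mostly higher signals in the columnar/hypertrophic section, by less than 2-fold. Signals are deposited intensities on a linear scale, and differences are log2 of the columnar/hypertrophic signal minus log2 of the round signal. A probe set under the floor in one specimen gives only a bound. With 1 array per zone no test was possible, and no difference has a replicate check. Of the 20 probe sets, 16 had the higher signal in columnar/hypertrophic and 4 in round cartilage, whereas 42.4% of all 29258 compared probe sets were higher in the columnar/hypertrophic specimen. The 16 include 2 bounds, of *Slc7a1* and *Slc7a11*. Their round signals were under the floor, so they could only fall on the columnar/hypertrophic side. The 2-fold rule was met by 1 member probe set (5%) in the columnar/hypertrophic direction, against 3.58% of all compared probe sets, and by 0 in the round direction, against 6.24%. As deposited, the 2-fold share of the members was thus near that of the whole array. Each gene was represented by its brightest probe set. On this basis 8 of the 10 genes were on the columnar/hypertrophic side, against 46.9% of all compared genes, and 0 reached 2-fold in that direction, against 4.26%. The median difference of the 10 genes was 0.41, and that of all 12714 compared genes was -0.04. Over 4835 genes in the signal range of the members other than *Slc7a11*, the median was 0.04. Of these genes, 53.4% were on the columnar/hypertrophic side, and 3.31% reached 2-fold there. The list was chosen with earlier results of these data known, so these shares and medians describe it and do not test it.

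**Figure D1:**
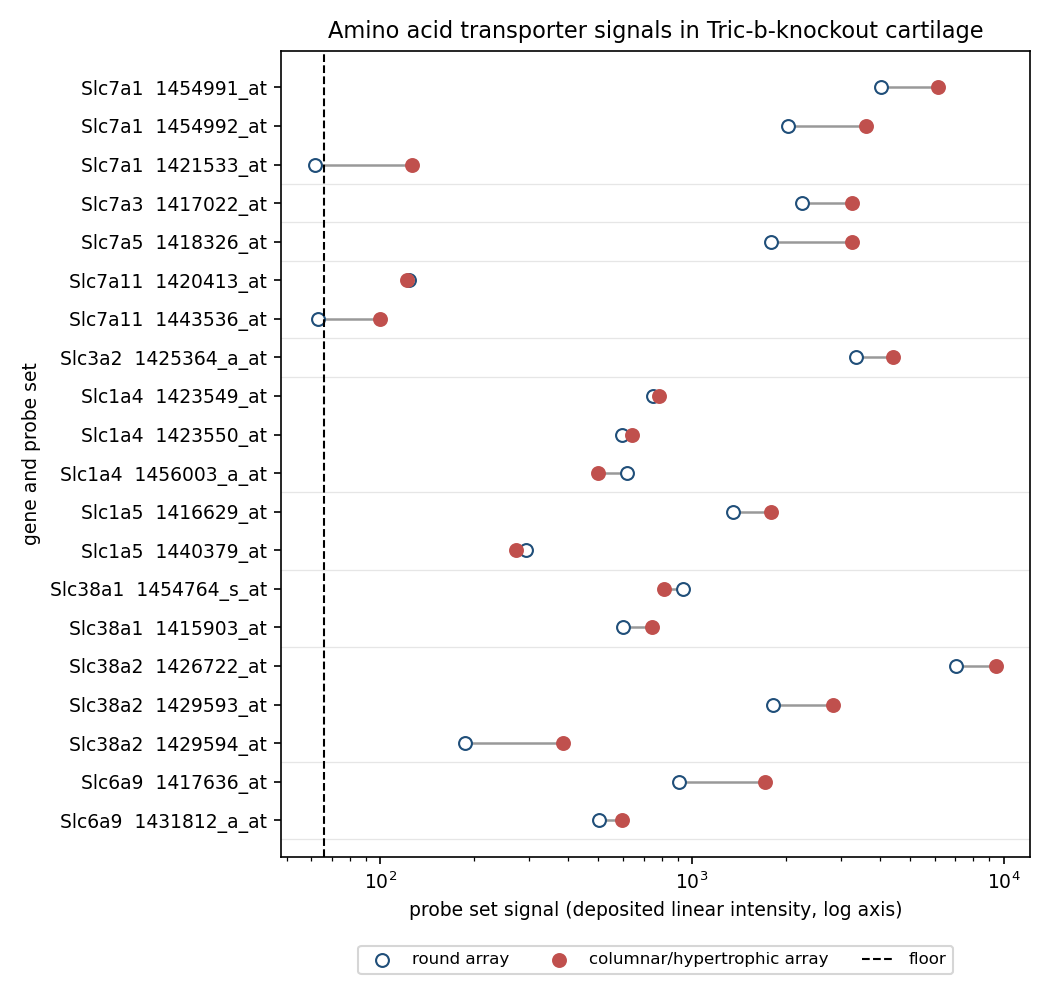
Signals (log axis) of all 20 transporter probe sets in round (open circles) and columnar/hypertrophic cartilage (filled circles), 1 array per zone, with the floor of 65.9 as a dashed line. In 16 probe sets the filled circle lies to the right, and *Slc7a1* and *Slc7a11* each have 1 probe set whose round signal lies under the floor. Compare signals within a line, not between lines.

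The cationic amino acid transporters, which carry arginine, lysine and ornithine, were both higher in the columnar/hypertrophic specimen. *Slc7a1*, which encodes the widely expressed CAT-1, had 3 probe sets. The brightest had signals of 4049 (round) and 6155 (columnar/hypertrophic), an order kept below, and a difference of 0.60. The second, designed from the same sequence record, had signals of 2032 and 3626, a difference of 0.84. The third had signals of 61.9, under the floor, and 126, and was higher by at least 1.92-fold in columnar/hypertrophic cartilage. All probe sets of *Slc7a1* were thus on one side, although the third was close to background and, as a bound, could fall on no other side. *Slc7a3*, encoding CAT-3, which is best known from brain and early embryos, had 1 probe set with signals of 2245 and 3253, a difference of 0.53. A difference at least as large as that of *Slc7a1* was found in 9.92% of all compared genes, and one as large as that of *Slc7a3* in 11.9%.

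The partners of the CD98 complex did not show a common difference. *Slc3a2* encodes the heavy chain CD98, which carries several light chains to the cell surface, and its only probe set had signals of 3360 and 4416, a difference of 0.39. *Slc7a5* encodes the light chain LAT1, an exchanger for leucine and other large neutral amino acids. Its only probe set had signals of 1791 and 3271, a difference of 0.87, which was reached by 5.39% of all compared genes. *Slc7a11* encodes the light chain xCT, which imports cystine for glutathione synthesis in exchange for glutamate. Its brighter probe set had signals of 123 and 121, a difference of -0.02, and the dimmer one had 63.0, under the floor, and 99.7, which was higher by at least 1.51-fold in columnar/hypertrophic cartilage. The *Slc7a11* signals were all within 1.87 times the floor, and the direction of the first probe set turned under other scalings, to 0.07 with median centring, 0.20 with quantile normalization and 0.24 with lowess centring. *Slc7a5* therefore differed between the zones by the larger amount on the deposited scale, and no direction was given by these arrays for *Slc7a11*.

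The 2 members of the SLC1 family are exchangers of neutral amino acids. *Slc1a4*, encoding the alanine, serine and cysteine transporter ASCT1, had signals of 749 and 781 on its brightest probe set, a difference of 0.06. Its other probe sets had signals of 595 and 642 (0.11) and of 619 and 500 (-0.31). The difference of *Slc1a4* thus lay near 0, and its sign depended on the probe set. *Slc1a5* encodes ASCT2, a major route of glutamine entry. Its brighter probe set had signals of 1354 and 1787, a difference of 0.40, while the dimmer one had signals of 292 and 272, a difference of -0.10.

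The sodium-coupled transporters of the SLC38 family, which accumulate glutamine, alanine and other small neutral amino acids, differed from each other. *Slc38a2* encodes SNAT2, the system A carrier that is induced when amino acids are scarce. Its brightest probe set had signals of 7039 and 9432, a difference of 0.42. The other probe sets, both from one sequence record, had signals of 1818 and 2836 (0.64) and of 187 and 386 (1.05). The last was the only member probe set that met the 2-fold rule, and it was also the dimmest of the 3. *Slc38a1*, encoding SNAT1, had signals of 933 and 815 on its brighter probe set, a difference of -0.19, and of 600 and 745 on the other, a difference of 0.31. The suffix of the brighter probe set marks probes that can match more than 1 transcript, so the direction of *Slc38a1* rested on the choice of probe set.

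*Slc6a9*, encoding the glycine transporter GLYT1, had the largest difference of the 10 genes on its brightest probe set, as deposited and under the 3 other scalings, but not when probe sets were averaged (0.59, against 0.87 for *Slc7a5*). Its brighter probe set had signals of 905 and 1715, a difference of 0.92, which was reached by 4.94% of all compared genes. The other probe set had signals of 501 and 596, a difference of 0.25. Both lay on the columnar/hypertrophic side, but they were 0.67 apart on the log2 scale, the widest gap within any of the 10 genes.

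These gaps between probe sets of one gene are the only spread the data hold. Over 5446 genes with several probe sets above the floor, the log2 difference varied between probe sets with a pooled SD of 0.34, and it contains no variation between animals or preparations. The brightest probe sets of 7 of the 10 transporter genes exceeded it on the columnar/hypertrophic side, against 20.4% of all compared genes. For 5 genes, *Slc7a1*, *Slc7a3*, *Slc7a5*, *Slc3a2* and *Slc38a2*, every probe set did so, although *Slc7a3*, *Slc7a5* and *Slc3a2* have only 1 each. Of the 7 genes with several compared probe sets, 3 (*Slc7a1*, *Slc38a2* and *Slc6a9*) had all of them on one side. The third *Slc7a1* probe set enters both counts as a bound that could only fall on the columnar/hypertrophic side. In the order of gene-level differences, from *Slc6a9* (0.92) through *Slc7a5*, *Slc7a1*, *Slc7a3*, *Slc38a2*, *Slc1a5*, *Slc3a2*, *Slc1a4* and *Slc7a11* to *Slc38a1* (-0.19), no neighbours lay farther apart than this SD.

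**Figure D2:**
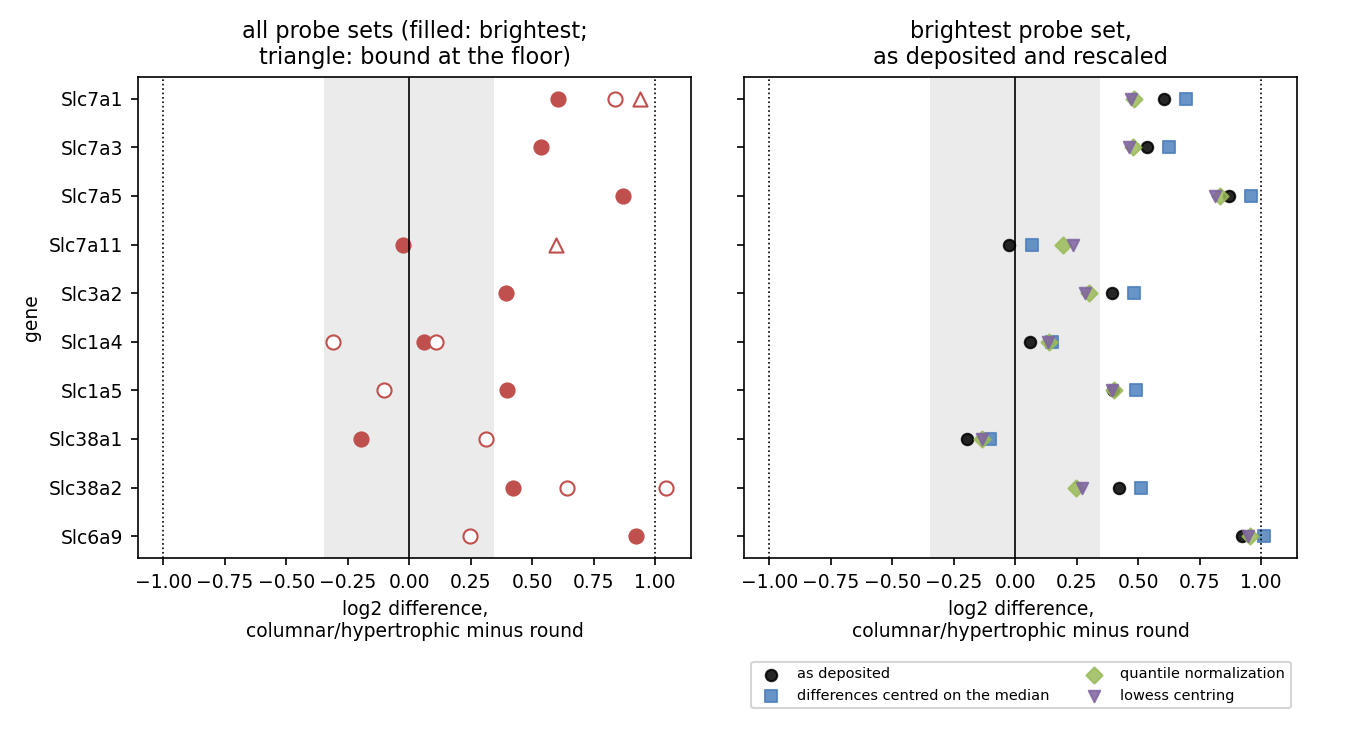
Log2 difference (columnar/hypertrophic minus round) of each transporter gene. Left, all 20 probe sets, with the brightest of each gene filled and bounds at the floor as triangles; right, the brightest probe set as deposited and after 3 other scalings. The grey band is the pooled SD of 0.34 on either side of 0 and the dotted lines mark 2-fold. *Slc6a9* and *Slc7a5* lie farthest to the right, and *Slc38a1* stays left of 0 under all 4 scalings.

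Other scalings moved both the whole array and the transporter values. The median of all compared genes, -0.04 as deposited, was 0.05 with median centring, 0.03 with quantile normalization and 0.01 with lowess centring, and that of the 10 genes was 0.50, 0.35 and 0.34. Of all calls at 2-fold on the array, 36.4% were in the columnar/hypertrophic direction as deposited, 45.4% with median centring, 48.6% with quantile normalization and 52.3% with lowess centring. Under the last 2, the difference of the bright *Slc38a2* probe set was 0.25 and 0.27, and that of *Slc3a2* was 0.30 and 0.28, so that both fell inside the pooled SD. *Slc7a1*, *Slc7a3*, *Slc7a5*, *Slc1a5* and *Slc6a9* exceeded it under all scalings. With median centring 3 of the 20 transporter probe sets (15%) met the 2-fold rule on the columnar/hypertrophic side, against 4.30% of all compared probe sets. They included the dimmest *Slc7a1* probe set, a bound whose round signal lay under the floor.

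Reference promoters were searched for the element that ATF4 binds with C/EBP partners, since several of the transporter genes are known targets of ATF4. RefSeq sequences (build GRCm38.p6) of 250 bases before to 50 after the transcription start were matched by symbol for 6 of the 10 genes, with 9 windows in all, and *Slc7a3*, *Slc7a5*, *Slc1a5* and *Slc38a1* had no entry. The element, TGATGNAA on either strand, was present in 1304 of 32851 windows of the same length (3.97%). Among the transporters it was found in *Slc7a11* and *Slc1a4*. Whether the element bears on the differences between the zones was not tested. The stretch from 100 bases before to 20 after the start is printed for both. Beside them *Slc38a2* and *Slc7a1* are printed as examples of windows without a match. Capitals mark the element or its reverse complement, and all 4 sequences read 5′ to 3′ on the minus strand.
Slc7a11, chr3:50443594-50443713: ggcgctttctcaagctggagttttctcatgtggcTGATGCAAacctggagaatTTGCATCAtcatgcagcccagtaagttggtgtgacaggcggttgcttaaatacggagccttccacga
Slc1a4, chr11:20332694-20332813: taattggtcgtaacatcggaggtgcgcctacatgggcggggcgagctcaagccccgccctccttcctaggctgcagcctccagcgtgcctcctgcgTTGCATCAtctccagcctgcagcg
Slc38a2, chr15:96699709-96699828: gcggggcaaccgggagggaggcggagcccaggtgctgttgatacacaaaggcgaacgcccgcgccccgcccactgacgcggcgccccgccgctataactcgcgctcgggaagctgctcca
Slc7a1, chr5:148399885-148400004: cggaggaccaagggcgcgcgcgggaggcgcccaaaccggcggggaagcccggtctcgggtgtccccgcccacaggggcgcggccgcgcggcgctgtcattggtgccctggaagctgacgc

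*Slc7a11* held the element on both strands, from -66 to -59 and, reversed, from -47 to -40 relative to the start. Only 23 of the 32851 windows (0.07%) held more than 1. *Slc1a4* held it reversed across the start, from -4 to 4. The antioxidant pattern TGANNNNGC is a loose form of the site read by NRF2. It was found in windows of *Slc7a1*, *Slc7a11*, *Slc1a4*, *Slc38a2* and *Slc6a9*, but it is short on fixed letters and was present in 41.3% of all windows. In *Slc7a11* its match from -45 to -37 overlaps the second ATF4 element. The matches in *Slc7a11* and *Slc1a4* lack a C after TGA, which a stricter form of the site holds. The CRE TGACGTCA (1.79% of all windows) and the E-box CACGTG (7.15%) were in no transporter window. These matches describe letters in the reference and not binding, and elements outside the windows were not searched. The known amino acid response element of *Slc38a2* lies in its first intron and would not be seen.

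**Figure D3:**
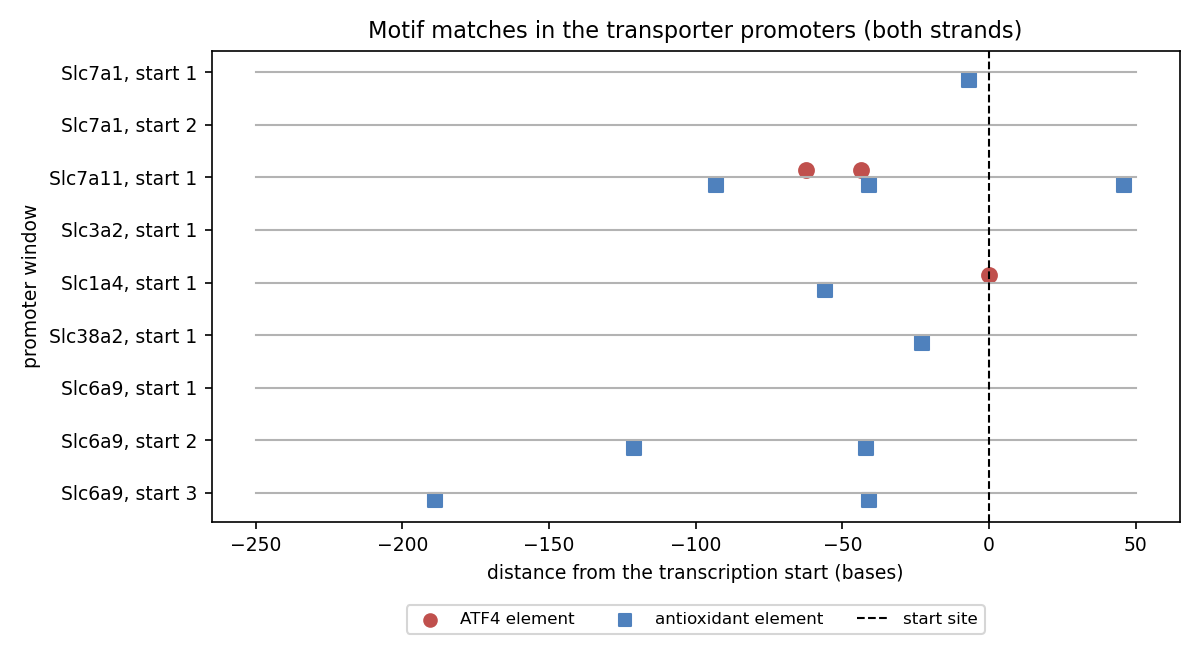
Positions of motif matches in the 9 reference promoter windows of 6 transporter genes, as distance in bases from the transcription start (dashed line). Circles mark the ATF4 element, which is seen in *Slc7a11* and *Slc1a4* only, and squares the antioxidant pattern; genes with several starts have 1 line for each.

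Genes listed as other amino acid transporters of the plasma membrane were spread widely on both sides. Where their proteins lie in these cells was not examined. Of 37 measured genes, 13 were under the floor in both arrays, and the 24 compared had a median difference of 0.05. In this list the 2-fold rule was met by 5 genes toward the columnar/hypertrophic side and by 2 toward the round side, where the shares of all compared genes were 4.26% and 6.17%. The genes named here and in the following paragraphs are those with the largest differences in each list unless stated otherwise. *Slc38a10*, a member of the SLC38 family, had signals of 3403 and 8914 (1.39, from 0.90 to 1.83 over 6 probe sets). *Slc38a4*, a system A gene like *Slc38a2*, had 1164 and 2581 (1.15). *Slc43a2*, encoding LAT4, had signals of 14.1, under the floor, and 236, higher by at least 3.58-fold in columnar/hypertrophic cartilage. *Slc1a3*, a glutamate transporter gene, was higher in the round specimen, with 550 and 225 (-1.29, from -1.85 to -0.64 over 6 probe sets). So was *Slc38a6*, with 1243 and 565 (-1.14, but -0.11 on its second probe set). The remaining genes past 2-fold, *Slc38a3* (1704 and 3520, 1.05) and the aromatic amino acid transporter gene *Slc16a10* (96.0 and 209, 1.12), are named after their values were seen. The 3 probe sets of *Slc16a10* ranged from 0.25 to 1.12.

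Family relatives of the 10 genes, also chosen after their values were seen, show the same mixture. *Slc7a2*, encoding the third cationic transporter CAT-2, had signals of 2842 and 2354, a difference of -0.27, opposite in sign to *Slc7a1* and *Slc7a3*, and its 4 probe sets ranged from -0.90 to 0.31. *Slc7a6* and *Slc7a7* encode further light chains of CD98. They had signals of 901 and 1485 (0.72) and of 111 and 194 (0.81), while *Slc7a8*, encoding the light chain LAT2, was under the floor in both arrays. Carriers of mitochondria and lysosomes had a median difference of -0.29, with 4 of 13 compared genes higher in the columnar/hypertrophic specimen, against 46.9% of all compared genes. The median was -0.05 with a floor at the 60th percentile and -0.12 with quantile normalization or lowess centring. *Slc25a13*, which encodes the mitochondrial aspartate/glutamate carrier citrin, stood out from this list with signals of 135 and 835 (2.62). *Sfxn1*, a mitochondrial serine carrier gene, had 1966 and 3452 (0.81), and *Ctns*, encoding the lysosomal cystine exporter, had 354 and 185 (-0.94). *Slc25a29* had a difference of -0.50, with its 5 probe sets from -1.10 to 1.19.

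**Figure D4:**
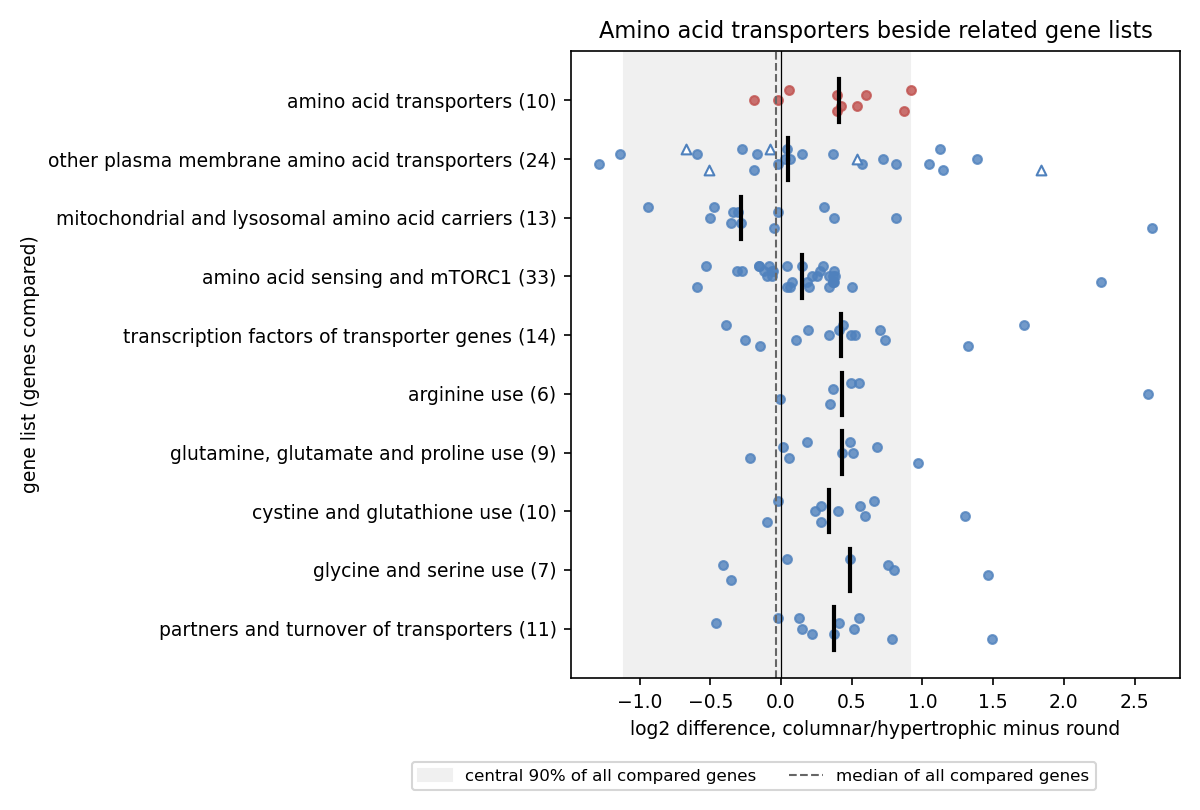
Log2 difference (columnar/hypertrophic minus round) of each compared gene in the transporter list (top) and 9 related lists, with the number of genes in parentheses, the list median as a black bar and bounds as open triangles. The grey band holds the central 90% of all compared genes, from -1.11 to 0.92, and the dashed line is their median of -0.04. All but *Slc6a9* of the 10 transporters lie inside the band.

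Genes that use the transported amino acids had medians like that of the transporters. The counts in this and the following lists stand against 46.9% of all compared genes on the columnar/hypertrophic side. Past 2-fold were 4.26% on that side and 6.17% on the round side. In the signal range of the transporters other than *Slc7a11*, 53.4% of genes were on the columnar/hypertrophic side. For arginine, 5 of 6 compared genes lay on the columnar/hypertrophic side, with a median of 0.43, and 1 passed 2-fold. *Nos1*, encoding a nitric oxide synthase, had signals of 214 and 1291 (2.59, from 0.87 to 3.05 over 3 probe sets), and *Odc1*, the ornithine decarboxylase gene of polyamine synthesis, had 6709 and 9842 (0.55). *Asl* and *Azin1* had 0.50 and 0.37. The arginase genes *Arg1* and *Arg2*, named after their values were seen, were under the floor in both arrays. So were *Ass1*, *Gatm* and *Nos2*. For glutamine, glutamate and proline, 8 of 9 genes were on the columnar/hypertrophic side with a median of 0.43, and none reached 2-fold. The aminotransferase gene *Got1* had signals of 1102 and 2155 (0.97), the asparagine synthetase gene *Asns* 7025 and 11271 (0.68), and *Gpt2* and *Got2* had differences of 0.51 and 0.49.

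For cystine and glutathione, 8 of 10 genes were on the columnar/hypertrophic side with a median of 0.34. *Cth*, encoding cystathionine γ-lyase, which makes cysteine inside the cell, had signals of 1282 and 3152 (1.30). The glutathione synthesis genes *Gclm* and *Gss* had differences of 0.66 and 0.59, and 0.11 and 0.29 on their second probe sets, and *Chac1*, encoding a glutathione-degrading enzyme, had 0.56. *Gclc*, encoding the catalytic partner of the *Gclm* product and chosen after its values were seen, had -0.10, and 0.53 on its second probe set. For glycine and serine, 5 of 7 compared genes were on the columnar/hypertrophic side with a median of 0.49, which was 0.07 over the 4 genes with a specific probe set. The serine synthesis genes *Psph*, *Psat1* and *Phgdh* had differences of 1.46, 0.80 and 0.76, next to 0.92 for the glycine transporter gene *Slc6a9*. *Shmt2*, which interconverts serine and glycine in mitochondria, had 0.49, with its 4 probe sets from -0.79 to 1.96. Some of these enzymes and transporters are known ATF4 targets together, so the lists are not independent of each other.

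Regulators of the transporter genes lay mostly on the columnar/hypertrophic side, and nutrient sensors had a median nearer 0. The transcription factor list also held *Keap1* and *Trib3*, which encode no transcription factor, and the repressor gene *Bach1*. Of its 14 genes, 11 were higher in the columnar/hypertrophic specimen, against 46.9% of all compared genes. Past 2-fold were 2, against 4.26%. The median was 0.43, and 0.26 when probe sets were averaged. The genes past 2-fold were *Atf3*, induced by ATF4, with signals of 149 and 491 (1.72), and *Myc*, a known activator of glutamine transporter genes, with 1239 and 3101 (1.32). Its partner gene *Max* and *Nfe2l2*, encoding NRF2, had differences of 0.74 and 0.70. *Atf4* itself, chosen after its values were seen, had signals of 8830 and 11757 (0.41, and 0.11 on its second probe set). The rest of the list on that side were *Nupr1* (0.52), *Atf5* (0.50), *Cebpg* (0.44), *Keap1* (0.34), *Ddit3* (0.19, and -0.04 on its second probe set) and *Trib3* (0.11). The 3 genes on the round side were *Cebpb* (-0.15), *Bach1* (-0.25) and *Mycn* (-0.39, with its 3 probe sets from -2.06 to -0.39). Among 33 genes of amino acid sensing and mTORC1, 21 were on the columnar/hypertrophic side, against 46.9% of all compared genes, with a median of 0.15, which was -0.01 when probe sets were averaged. *Rragd*, encoding the lysosomal GTPase RagD, was the only one past 2-fold, a share near the 4.26% of all compared genes. It had signals of 80.3, close to the floor, and 385 (2.26). *Tsc1* and *Tsc2*, which encode the complex that restrains mTORC1, had differences of -0.60 and -0.53, although the 3 probe sets of *Tsc1* ranged from -0.60 to 0.22, and *Sec13* had 0.50.

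Proteins that bind transporters or set their turnover made up the last list. Of 11 compared genes, 9 were higher in the columnar/hypertrophic specimen, against 46.9% of all compared genes, with a median of 0.37 that was 0.22 with a floor at the 60th percentile. *Sgk1*, a kinase gene that raises the surface amount of several carriers, had signals of 334 and 939 (1.49), and its relative *Sgk3* had a difference of 0.55. *Lgals3*, encoding galectin-3, which binds CD98, had signals of 10961 and 18851 (0.78), and *Otub1*, encoding a deubiquitinase that stabilizes xCT, had 0.51.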

How the data were processed

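Total RNA of 2 *Tric-b*-knockout cartilage specimens was measured on Affymetrix Mouse Genome arrays, 1 per zone. The authors deposited 1 linear intensity per probe set, from 0.11 to 68899. The submitters' processing notes name MAS5 without a version, while the methods of the study name robust multiarray analysis. Means trimmed by 2% at each end were 497 and 496, so no further scaling was applied. The number of arrays limits the precision.

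Of 45037 probe sets, 34945 had 1 gene symbol in the platform annotation, 932 several and 9160 none. Entrez identifiers matched 34741 of the first group to RefSeq genes (GRCm38.p6) and changed 0 symbols. Signals under the floor (40th percentile, 65.9) were set to it, and probe sets under it in both arrays were not compared. Each gene took the value of its brightest probe set (mean log2 signal of both arrays). Above the floor lay 27596 probe sets of the round and 26448 of the columnar/hypertrophic array. No list was tested, and counts and medians are given beside those of all features.

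The 10 genes and all lists were chosen with earlier results of these data known. Named genes were the 10 transporters and, of each of the 9 related lists, up to 4 genes with the largest difference above the floor and up to 2 bounds past 2-fold. Alternatives were median centring, quantile normalization, lowess centring (span 0.3), a floor at the 20th or the 60th percentile or none, averaging of probe sets, use of specific probe sets (no _a, _s or _x suffix) alone and a 3-fold rule. The pooled SD between probe sets of a gene, 0.34, served as the tolerance between settings, as no replicate SD exists. The fold calls on probe sets were tested on simulated data. The planted changes were larger than the transporter differences and lay in probe sets well above the floor. The choice of probe set for a gene, the list medians and the promoter search were not tested in this way. The software was Python (3.11.15) with pandas (2.3.3), numpy (2.4.6), matplotlib (3.10.9) and statsmodels (0.14.6).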

Additional observations from a re-analysis of the deposited data

How the results depend on the processing

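The number of transporter probe sets past 2-fold on the columnar/hypertrophic side, 1 as deposited, was 3 with median centring, 2 with quantile normalization, 2 with lowess centring, 2 with a 20th percentile floor and, without any floor, 2. The shares of all compared probe sets in these 5 settings were 4.30%, 4.49%, 4.79%, 6.06% and 11.3%, in this order. With a 20th percentile floor or none, the added call was the dimmest *Slc7a1* probe set. Its signals of 61.9 and 126, close to background, have a ratio of 2.04. The number was 0 of 17 compared member probe sets with a 60th percentile floor, against 3.10% of all compared probe sets. With the 3-fold rule the number was 0, against 1.32%. On the round side the number was 0 in all of these settings, where 6.24% of all compared probe sets passed 2-fold as deposited. The median of the glycine and serine list fell from 0.49 to 0.0731 on specific probe sets, which left 4 genes. The other list medians, including that of the 10 transporters, stayed within 0.34 of their deposited values. This tolerance is wide for medians. Within it, amino acid sensing and mTORC1 went from 0.15 to -0.01 and transcription factors from 0.43 to 0.26 when probe sets were averaged, other plasma membrane transporters from 0.05 to 0.21 with quantile normalization, cystine and glutathione from 0.34 to 0.56 on specific probe sets, and, with a 60th percentile floor, mitochondrial and lysosomal carriers from -0.29 to -0.05 and partners and turnover from 0.37 to 0.22. Of 78 values of single transporter genes under the alternatives, 77 stayed within the tolerance, and *Slc38a1* moved from -0.19 to 0.31 on specific probe sets. Many of these values could not move. A changed floor left every gene value that was still compared as deposited, and averaging cannot move genes with a single probe set. Median centring shifted all genes by the same amount, which was under the tolerance. The count of 77 is therefore no measure of stability. *Slc3a2* had no specific probe set and *Slc7a11* was under the floor at the 60th percentile. The cause of the moves was not tested beyond this construction. No paired analysis was possible because a single array stands for each zone, which leaves nothing to pair or test.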
